A study of Homo sapiens with 6 samples.

Results

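RNA of 57 splicing factor genes was compared between mimic and control libraries of MDA-MB-231 cells. The genes are those whose symbol begins with HNRNP, SRSF, SNRP, SF3A, SF3B or PRPF, leaving out symbols that end as pseudogenes do and rows of the table that name several genes at once. The rule looks at names alone and used no measured value. It found 18 hnRNP genes, 10 SR genes, 9 SNRP genes, 8 SF3A and SF3B genes and 12 PRPF genes, 57 of the 66381 rows of the deposited table. All 57 had an FPKM (fragments per kilobase of gene, scaled to library size, a level that can be set side by side between genes) of at least 1 in at least 3 of the 6 libraries, and so entered the test with 11260 rows in all.

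MDA-MB-231 is a human breast cancer line of the triple-negative type, with a mesenchymal look. The 6 libraries of polyadenylated RNA fall into a mimic group of 3, titled minic, and a control group of 3, titled minic_nc. A mimic is a synthetic RNA that is transfected to act like a microRNA, and the title of the series speaks of miR-5001-5p together with TNF-α and MNK2a–p38 MAPK signals. The comparison serves to look for genes that respond to the mimic. Neither oligonucleotide's sequence, its dose, the time after transfection nor separate cultures are given in the sources used here, so the p-values measure the spread between these libraries, which may be technical.

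Splicing removes introns from a transcript in the spliceosome, a machine of small nuclear ribonucleoproteins (snRNPs) that assembles anew on each intron. SR proteins bind exons and mostly help splice sites to be chosen, and hnRNP proteins coat the transcript and often hold splice sites back, so that the balance of these families sets which exons are kept. The SNRP genes encode proteins of the snRNPs, the SF3A and SF3B genes the parts of the U2 snRNP that grip the branch point, and the PRPF genes a mixed set, named after yeast splicing mutants, that acts from the U1 snRNP to the catalytic core.

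The mature microRNA named by the title lies at chr2:232550530-232550553 on the minus strand (RefSeq, GRCh38.p14). It is shown because its seed, bases 2 to 8 and here in capitals, defines the letters that were looked for in the 3′ UTRs of the 57 genes; that the mimic had this sequence is not stated by the labels.
hsa-miR-5001-5p: aGGGCUGGacucagcggcggagcu

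The reverse complement of the seed, CCAGCCC, was searched on the transcript strand in the longest 3′ UTR of each gene in GENCODE 29. It was in 4 of the 57 genes (7.02%), against 23.1% of the 9062 tested genes with a 3′ UTR. The median 3′ UTR of the 57 had 1211 bases, against 1397 bases in all 9062, and matches per kilobase were 0.0626 and 0.181. The 4 genes were HNRNPUL1, SF3A2, SF3B3 and SRSF7. Of the 4, only HNRNPUL1 passed the test of its change. It had 2 matches, at chr19:41306693-41306699 and chr19:41306938-41306944 on the plus strand, and its RNA was higher with the mimic. None of the 6 genes that were lower held the letters, but their median 3′ UTR had only 709 bases. With so few genes and such short 3′ UTRs, the lack of a match says little. The letters are shown here in capitals with the 8 bases on either side.
HNRNPUL1, upstream match: gcctccctCCAGCCCactgcctc
HNRNPUL1, downstream match: accctgctCCAGCCCctcagctt

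A second pair of overlapping letter runs, AGTACAA and GTACAAA, was searched in the same way. These had been picked by an earlier scan of the fold changes of this same comparison, and the 57 genes were part of that scan, so their counts are a description only. Either run was in 12 of the 57 genes (21.1%), against 17.2% of the 9062. It was in 3 of the 10 genes that were higher with the mimic, in 0 of the 6 that were lower and in 9 of the 41 that were not called. The higher genes with a match included PRPF31 and SF3B1. Their matches lie at chr19:54131687-54131693 on the plus strand and chr2:197391981-197391987 on the minus strand, at base 365 of 397 and base 316 of 2519 of the 3′ UTR.
PRPF31: ttgaaaagAGTACAAttaaaagg
SF3B1: acatttgtGTACAAAatgctaat

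The libraries held 31643826 to 32363456 counts, and the 57 genes took 1.24 to 1.29% of them in every library. VIM and CD44, which mark mesenchymal cells of this kind, were present in all 6 libraries and higher with the mimic: VIM rose from 449 to 553 FPKM and CD44 from 12.1 to 15.5 FPKM. EGFR had means of 44.1 and 48.5 FPKM in control and mimic libraries. ERBB2 was above the filter, with means of 4.43 and 3.995 FPKM, and neither gene passed the test. The epithelial genes CDH1 and EPCAM stayed below the filter, with group means of 0.047 to 0.149 FPKM. ESR1 and PGR were not analysed here.

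SRSF9, HNRNPM, HNRNPD and SNRPF fell with the mimic, and PRPF31, SNRPA1 and SF3B1 rose, each by at least 1.3-fold. In all, 16 of the 57 genes passed edgeR's quasi-likelihood test at an adjusted p under 0.05 (28.1%), 10 higher and 6 lower with the mimic. Over all 11260 rows, 22.3% passed, 13.6% higher and 8.63% lower, so the share among the splicing genes was near that of the whole table. At a filter of 5 FPKM, which leaves 6669 rows of higher level, the whole-table share was 31.6%. DESeq2 called 17 of the 57, against 27% of all rows, and these held the 16. Scaled to library totals in place of TMM (edgeR's trimmed mean scaling, used for all fold changes here), the split of the 57 turned to 10 higher and 11 lower, while 25.9% of all rows passed, 10.1% higher and 15.8% lower. The median log2 fold change was 0.02 over the 57 genes and −0.01 over all rows, and the median size of a change was 0.13 against 0.19. A change past 2-fold was called for 1 of the 57, SRSF9, against 1.64% of all rows. By these calls the members of a family did not move as a block: every family had at least 1 gene that rose and at least 1 that fell. The only lower calls among SNRP, SF3 and PRPF genes were SNRPF, SF3A3 and PRPF19. They passed in 2, 0 and 3 of the 6 fits without 1 library. Fewer transcripts per cell and a shift in the mix of cells cannot be told apart in RNA from a whole culture.

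**Figure D1:**
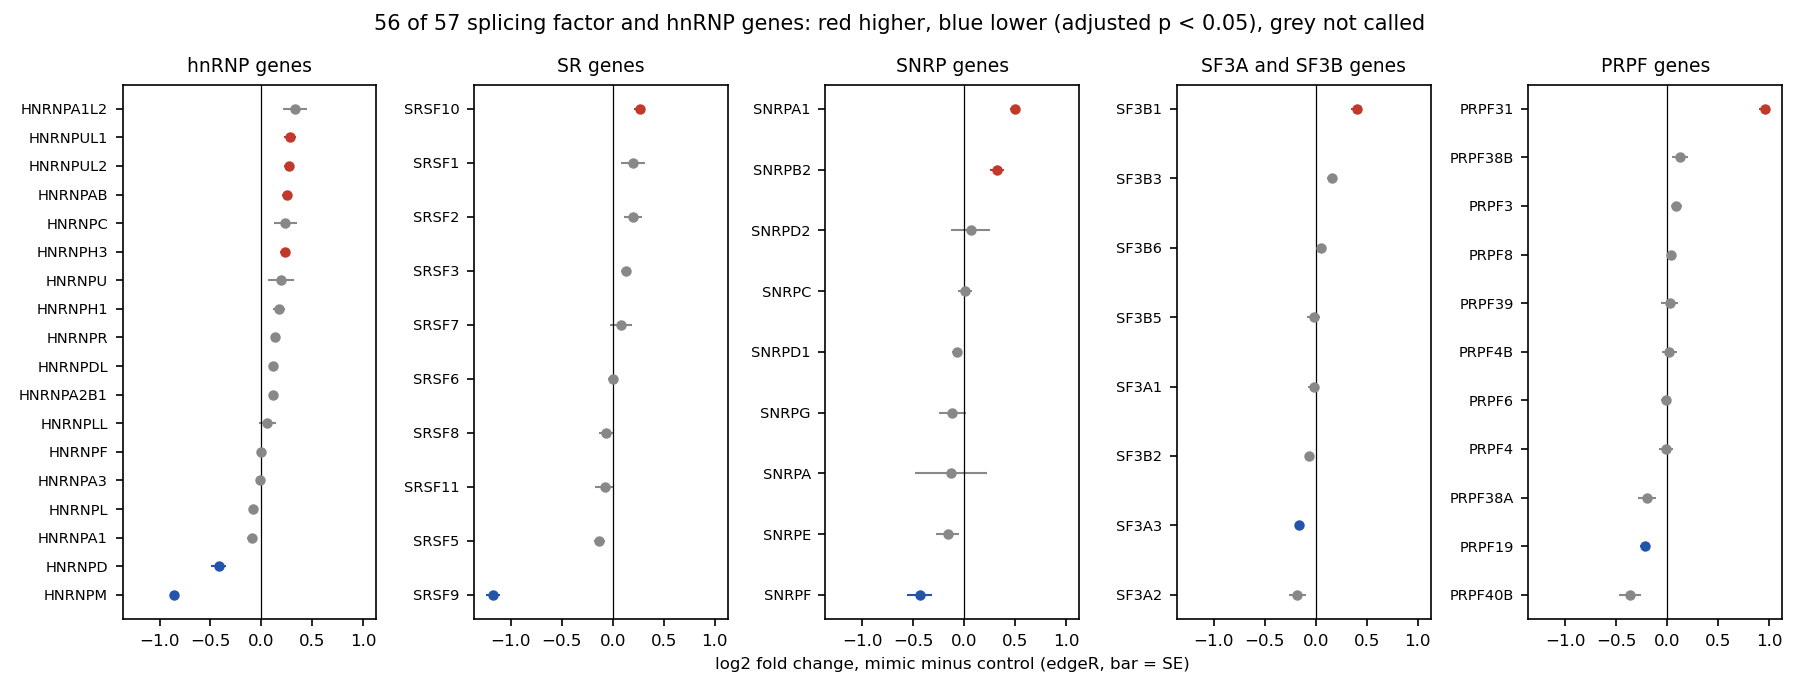
Log2 fold change, mimic minus control, of 56 of the 57 genes with its standard error, by family, from edgeR with TMM scaling. Of these, 9 lie to the right in red, 6 to the left in blue and 41 are grey, most of the grey ones within 0.2 of 0 and SNRPA with the widest bar.

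The 16 genes that passed had FPKM groups that did not overlap. On CPM (counts scaled to library size) with TMM, the groups did not overlap in 28 of the 57 genes (49.1%), against 42.1% of all rows. TMM places the mimic libraries slightly higher relative to the controls than FPKM does. The median of all rows was −0.09 on library totals, so the fold changes below are a little more positive than the FPKM beside them.

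Among SR genes, SRSF9 fell from the highest FPKM of the family to a level near those of the others. SRSF9 (SRp30c, chr12:120461668-120469793, minus strand, GRCh38) encodes a small SR protein that can act for or against an exon. Its FPKM was 58.0, 55.2 and 52.9 in control replicates 1, 2 and 3, and 21.2, 24.0 and 24.4 in mimic replicates 1, 2 and 3. The lowest control was thus more than double the highest mimic library. The means were 55.4 ± 2.54 and 23.2 ± 1.74 FPKM (SD, n = 3 each), a log2 fold change of −1.18 ± 0.07 (SE), or 2.26-fold lower (edgeR adjusted p = 0.000123). SRSF9 passed in every fit that left out 1 library.

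By FPKM, the make-up of the SR family changed with it. SRSF9 gave 26.4, 26.4 and 25.4% of the summed FPKM of the 10 SR genes in control replicates 1, 2 and 3, and 11.6, 13.1 and 14.2% in mimic replicates 1, 2 and 3. By FPKM it had rank 1 in all 3 controls, and ranks 4, 2 and 2 in mimic replicates 1, 2 and 3, where SRSF3 had rank 1. SRSF3, the smallest SR protein, was itself at 28.4 ± 0.667 and 29.4 ± 1.16 FPKM, with a log2 fold change of 0.13 ± 0.05 that did not pass (adjusted p = 0.0982). The ratio of SRSF3 to SRSF9 in FPKM was 0.490, 0.527 and 0.526 in the controls and 1.37, 1.28 and 1.16 with the mimic. On this scale the order of the pair turned over in every mimic library. On raw counts SRSF3 was already near or above SRSF9 in the controls (6956, 7091 and 6663 against 7025, 6647 and 6267). The turn in order thus depends on the row lengths in FPKM, while the fall of SRSF9 does not.

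**Figure D2:**
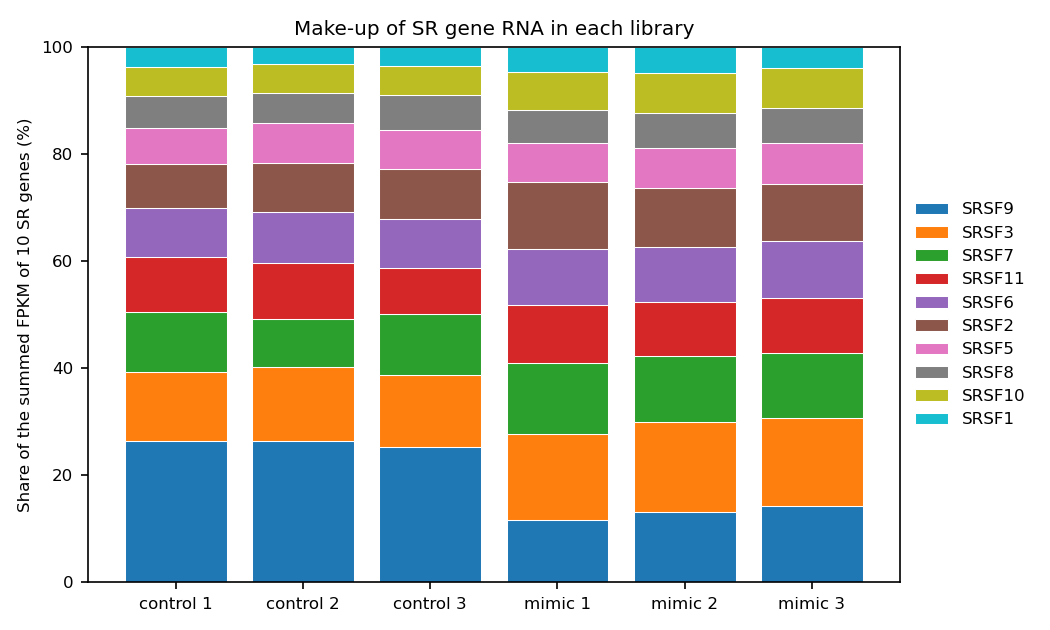
Share of the summed FPKM of the 10 SR genes (%) taken by each gene in each library, stacked to 100. The lowest band, SRSF9, fills 25.4 to 26.4% in the 3 controls and 11.6 to 14.2% in the 3 mimic libraries, while the SRSF3 band above it goes from 12.9 to 13.9% to 16.0 to 16.8%.

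SRSF10, an SR-related protein that represses splicing when it loses its phosphates, was the only SR gene that rose. Its FPKM was 11.9, 11.4 and 11.3 in the controls and 12.8, 13.7 and 12.9 with the mimic. The groups stood apart by less than 1 FPKM, and the rise was 1.20-fold (log2 0.26 ± 0.05, adjusted p = 0.0126). It did not pass without control replicate 3. The other 8 SR genes did not pass, with log2 fold changes from −0.13 for SRSF5 to 0.20 for SRSF1 and SRSF2. SRSF1, the founding SR protein, was measured with a wider spread, 7.40 ± 0.771 and 8.05 ± 1.14 FPKM, and its 95% interval of −0.08 to 0.48 leaves room for a rise like that of SRSF10.

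HNRNPM, whose protein binds GU-rich stretches and is known to favour skipping of the variable CD44 exons in breast cancer cells, fell the most among hnRNP genes. The gene (chr19:8444767-8489114, plus strand) had 52.0, 49.5 and 52.3 FPKM in the controls and 27.0, 26.2 and 27.5 FPKM with the mimic. Neither group spread over more than 3 FPKM, and a gap of over 20 FPKM lay between them. The fall was 1.81-fold (log2 −0.85 ± 0.04), and its adjusted p of 0.000083 from edgeR was the smallest of the 57. Within the family HNRNPM moved by FPKM from rank 8 in the controls to rank 14 or 15 of 18. HNRNPR, at 30.1 ± 0.142 and 31.3 ± 1.29 FPKM, did not pass. The ratio of HNRNPM to HNRNPR in FPKM was 1.65 to 1.73 in the controls and 0.801 to 0.909 with the mimic. The size of this ratio depends on the row lengths in FPKM, while its fall does not. On raw counts HNRNPM was above HNRNPR in each control (9453, 8935 and 9297 against 8432, 8372 and 8311).

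HNRNPD (AUF1), which binds AU-rich elements and is known for its part in mRNA decay, also fell. Its FPKM was 25.4, 29.8 and 28.6 in the controls and 19.3, 20.9 and 19.3 with the mimic. Control replicate 1 lay closest to the mimic libraries and still above all of them. The fall was 1.34-fold (log2 −0.42 ± 0.07, adjusted p = 0.00855) and passed in every fit without 1 library. The closest relatives of HNRNPD did not share the fall. HNRNPAB rose, from 109 ± 3.16 to 123 ± 3.89 FPKM (log2 0.25 ± 0.05, adjusted p = 0.0113), and HNRNPDL had a log2 fold change of 0.12 ± 0.05 that did not pass (adjusted p = 0.124).

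The other 3 hnRNP genes that rose did so by about 1.2-fold. HNRNPUL2 and HNRNPUL1, related to HNRNPU and known from the response to broken DNA, belong to the same small family. HNRNPUL2 had 33.8, 33.4 and 34.5 FPKM in the controls and 38.3, 37.7 and 39.8 FPKM with the mimic (log2 0.27 ± 0.04, adjusted p = 0.00602). HNRNPUL1 had 59.1, 55.2 and 60.4 FPKM in the controls and 66.2, 71.6 and 63.2 FPKM with the mimic (log2 0.28 ± 0.06, adjusted p = 0.0163). It was no longer called without control replicate 2, its lowest library. HNRNPU itself, a scaffold of nuclear RNA, was at 23.2 ± 2.80 and 25.1 ± 3.42 FPKM, a log2 fold change of 0.19 ± 0.13 that did not pass. HNRNPH3, of the G-rich binding H and F group, went from 34.0 ± 0.962 to 37.7 ± 0.667 FPKM (log2 0.23 ± 0.04, adjusted p = 0.0112).

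Of the 5 hnRNP genes highest in FPKM, HNRNPAB passed, as given above, and the other 4 did not. HNRNPA1, which binds splicing silencers and had the highest mean FPKM over the 6 libraries of all 57 genes, was at 168, 170 and 171 FPKM in the controls and 145, 159 and 148 FPKM with the mimic. All 3 mimic values were below the controls on this scale, but with TMM the log2 fold change was −0.09 ± 0.05 and did not pass (adjusted p = 0.202). Scaled to library totals it was −0.17 and was called lower (adjusted p = 0.0337), so the call depends on the scaling. HNRNPA2B1, HNRNPF and HNRNPA3, at 91.7 to 150 FPKM, had log2 fold changes of 0.11, 0.00 and −0.01 and did not pass. For HNRNPF the 95% interval of the change was −0.11 to 0.11. The 12 uncalled hnRNP genes ran from −0.09 to 0.33, the upper end being HNRNPA1L2, a near copy of HNRNPA1 at under 3 FPKM whose reads the counting could share with it.

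**Figure D3:**
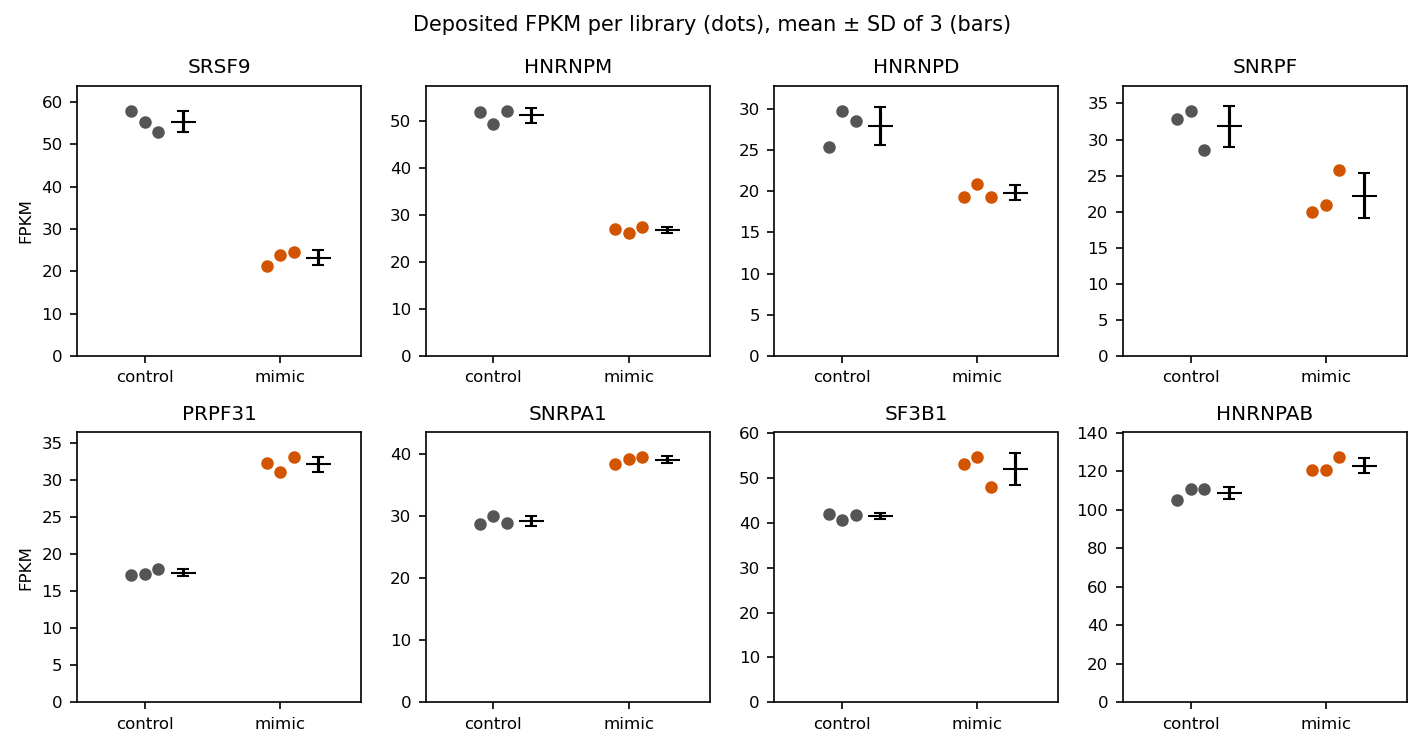
FPKM in each of the 3 control (grey) and 3 mimic (orange) libraries for 8 of the genes that passed, with the mean and SD beside each group and the axis starting at 0. In each panel, drawn to its own scale, the groups are apart. Counted in FPKM, the gap is widest for SRSF9 (52.9 to 58.0 against 21.2 to 24.4 FPKM). It is narrowest in FPKM for SNRPF (28.6 to 34.0 against 20.0 to 25.8 FPKM).

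Among the SNRP genes, the proteins specific to the U2 snRNP rose and a protein of the common Sm ring fell. SNRPA1 encodes the A′ protein of U2 and SNRPB2 the B″ protein, partners that sit together on a stem of U2 RNA. SNRPA1 (chr15:101281510-101295282, minus strand) had 28.7, 30.1 and 28.9 FPKM in the controls and 38.5, 39.3 and 39.6 FPKM with the mimic. Its libraries were tight in each group, and the rise was 1.41-fold (log2 0.50 ± 0.05, adjusted p = 0.000717). SNRPB2 had 23.5, 26.6 and 24.7 FPKM in the controls and 28.9, 31.1 and 28.7 FPKM with the mimic. This smaller rise (log2 0.32 ± 0.07, adjusted p = 0.0184) was lost without control replicate 1, without control replicate 3 or without mimic replicate 2.

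SNRPF, a subunit of the ring of Sm proteins that U1, U2, U4 and U5 share, had 32.8, 34.0 and 28.6 FPKM in the controls and 20.0, 20.9 and 25.8 FPKM with the mimic. Control replicate 3 and mimic replicate 3 came within 3 FPKM of each other. The fall was 1.36-fold (log2 −0.44 ± 0.12, adjusted p = 0.0393), and passed in only 2 of the 6 fits without 1 library: those without control replicate 3 or mimic replicate 3. Of its ring partners, SNRPB and SNRPD3 were not analysed here, and the others did not pass. SNRPE was at −0.16 ± 0.11, SNRPG at −0.12 ± 0.13, SNRPD1 at −0.07 ± 0.05 and SNRPD2 at 0.06 ± 0.19 on the log2 scale. These small genes have many near copies in the genome, so reads may have been shared between them.

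SNRPC, the C protein of the U1 snRNP that steadies U1 on the 5′ splice site, had the highest mean FPKM of the SNRP genes and did not pass. Its FPKM was 151, 165 and 153 in the controls and 139, 151 and 156 with the mimic, and its log2 fold change was 0.01 ± 0.07, with an 95% interval of −0.15 to 0.16. SNRPA, the A protein of U1, varied within each group from 8.59 to 20.0 FPKM in the controls and from 8.45 to 17.4 FPKM with the mimic. The groups overlapped, and its interval of −0.97 to 0.71 on the log2 scale was the widest of the 57.

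SF3B1, the largest subunit of SF3B, which closes around the branch point adenosine and is mutated in some breast cancers, was the only SF3 gene that rose. The gene (chr2:197389784-197435091, minus strand) had 41.9, 40.6 and 41.7 FPKM in the controls and 53.1, 54.6 and 47.8 FPKM with the mimic. Mimic replicate 3 rose the least and was still above every control. The rise was 1.32-fold (log2 0.40 ± 0.05, adjusted p = 0.00307) and passed in every fit without 1 library. The other 4 SF3B genes did not pass. SF3B3 was at 0.16 ± 0.05 (adjusted p = 0.0686), and SF3B2, SF3B5 and SF3B6 lay between −0.07 and 0.05.

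SF3A3, which helps join SF3A to the U2 snRNP, was slightly lower. It had 36.1, 37.1 and 35.5 FPKM in the controls and 30.6, 30.3 and 31.2 FPKM with the mimic (log2 −0.16 ± 0.04, adjusted p = 0.0396). The groups stood clearly apart, but the call was lost in all 6 fits without 1 library. SF3A1 was at −0.02 ± 0.06 and SF3A2 at −0.18 ± 0.09, and neither passed. SF3B5, a small subunit with the highest mean FPKM of the SF3 genes, had 132, 147 and 137 FPKM in the controls and 125, 132 and 130 FPKM with the mimic (log2 −0.02 ± 0.06, adjusted p = 0.850).

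PRPF31 rose the most of all 57 genes. Its protein binds the U4 snRNA and holds U4/U6 to U5 in the tri-snRNP, and loss of a copy of the gene is known as a cause of retinitis pigmentosa. PRPF31 (chr19:54115410-54131719, plus strand) had 17.1, 17.4 and 18.0 FPKM in the controls and 32.3, 31.1 and 33.1 FPKM with the mimic. The libraries of each group lay close together, and a wide gap parted the groups. The rise was 1.94-fold (log2 0.95 ± 0.06, adjusted p = 0.000122).

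PRPF40B was near the filter, at 1.53 ± 0.0930 and 1.13 ± 0.105 FPKM in control and mimic libraries (log2 −0.37 ± 0.11), and just missed the threshold (adjusted p = 0.0526). DESeq2 did call it lower (adjusted p = 0.0352).

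PRPF19, the ubiquitin ligase at the heart of the complex that joins the spliceosome at activation, was lower. Its FPKM was 75.2, 79.5 and 82.0 in the controls and 63.9, 65.2 and 63.8 with the mimic. The mimic libraries were nearly level, and the fall was 1.16-fold (log2 −0.22 ± 0.05, adjusted p = 0.0195). It was lost without control replicate 2, without control replicate 3 or without mimic replicate 1. The rest of the PRPF genes lay between −0.37 and 0.13. PRPF8, the protein that cradles the catalytic RNA, was at 0.04 ± 0.04, and PRPF6, which bridges U5 to U4/U6, at −0.01 ± 0.05. PRPF6 had the highest mean FPKM of the family over the 6 libraries, although PRPF19 was above it in control replicates 2 and 3. PRPF6 had 78.6, 77.6 and 76.8 FPKM in the controls and 70.5, 72.9 and 75.9 FPKM with the mimic, with an interval of −0.12 to 0.10 on the log2 scale.

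Genes that work with these families were taken from 8 further lists of 125 genes, of which 110 were tested as rows of their own. Of the 110, 22 passed (20.0%, against 22.3% of all rows), 17 higher and 5 lower, and their median log2 fold change was 0.03. Scaled to library totals, the split was 14 higher and 14 lower, so the excess of higher genes depends on the scaling.

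Of 6 hnRNP proteins with other symbols, 3 rose, among them SYNCRIP (hnRNP Q) at 0.62 ± 0.04 and RBMX (hnRNP G) at 0.46 ± 0.06 on the log2 scale. SYNCRIP went from 18.0, 17.3 and 17.2 FPKM to 25.2, 26.5 and 24.8 FPKM (adjusted p = 0.000205). Of 6 kinases that phosphorylate SR proteins, 4 rose, CLK3 by 0.52, CLK1 by 0.52, DYRK1A by 0.42 and SRPK2 by 0.30. SRPK1 and CLK2, at 0.12 and −0.19, did not pass. SRPK1 had the highest FPKM of the list, 135.9 and 139.9 in control and mimic libraries. These lists are small, and over all rows 13.6% were higher. Without 1 library, DYRK1A and SRPK2 each passed in only 2 of 6 fits. Among 12 U2AF and SR-related proteins, PNN, SRRM1 and RBM25 rose by 0.22 to 0.28, RBM25 passing in only 1 of 6 fits without 1 library. U2AF1, which reads the AG at the 3′ splice site, fell by 0.28.

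The list of other snRNP and spliceosome proteins had 45 tested genes, of which 5 rose and 1 fell. LSM3, a subunit of the ring on U6 RNA and on decaying mRNA, had 6.85, 6.44 and 6.15 FPKM in the controls and 19.5, 19.9 and 22.2 FPKM with the mimic (log2 1.74 ± 0.08, adjusted p = 0.000062). That is a larger change than any of the 57 genes showed. The helicase SNRNP200, which unwinds U4 from U6, rose by 0.35, the disassembly helicase DHX15 by 0.34 and the intron-binding AQR by 0.39. DDX23, the gene that fell, was at −0.24 ± 0.05 and passed in only 2 of 6 fits without 1 library. It was named after its value was seen.

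In snRNP assembly, 0 of 12 tested genes passed edgeR's test, with 2 at an unadjusted p under 0.05 and 0 called by DESeq2. Of 14 other regulators of alternative splicing, TIAL1 rose by 0.31, and RBM10 and MBNL3 were lower, at −0.50 ± 0.07 and −0.43 ± 0.09. EIF4A3, the RNA clamp of the exon junction complex that splicing leaves on mRNA, was the only 1 of 5 in its list that passed, from 40.6, 41.3 and 42.1 FPKM in the controls to 24.6, 25.5 and 24.1 FPKM with the mimic (log2 −0.66 ± 0.04, adjusted p = 0.000169). In nonsense-mediated decay, which reads that complex, 1 of 10 genes passed: SMG1, the kinase of UPF1, rose by 0.43 ± 0.05.

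Several family genes share a row with a neighbour and so are not among the 57. HNRNPK with MIR7-1 was at 0.10 ± 0.04, SRSF4 with RF02271 at −0.26 ± 0.13, SF3B4 with MTMR11 at 0.14 ± 0.19 and HNRNPH2 with RPL36A at −0.12 ± 0.10 on the log2 scale, and none of the 4 rows passed. HNRNPA0, SNRPB, SNRPD3 and PRPF18 were not analysed here.

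Some of the genes overlap a gene on the other strand, and whether strand was used in counting is not given in the sources used here. SRSF9 shares 2082 bases with GATC, which had a log2 fold change of 0.22 and did not pass. PRPF31 shares 266 bases with TFPT, which was at −0.25 and did not pass. HNRNPUL1 shares 6012 bases with TGFB1, which rose by 0.39 (adjusted p = 0.0117), so reads of this pair cannot be told apart there. HNRNPAB shares 2667 bases with PHYKPL (0.04) and HNRNPH3 shares 2085 bases with RUFY2 (−0.10), and neither of these passed. SNRPF shares 36781 bases with CCDC38, which was below the filter. HNRNPM, HNRNPD, SNRPA1, SNRPB2, SF3B1, SF3A3, SRSF10 and PRPF19 had no protein-coding neighbour overlapping them in GENCODE 29, and HNRNPUL2 shares its length with the read-through gene HNRNPUL2-BSCL2.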

How the data were processed

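The authors deposited 1 table of 66381 rows, with a raw count and an FPKM for every library, per the file headers. In the values, each deposited FPKM is the deposited count divided by a length that is fixed for the row and by the total of the library. For SRSF1 and HNRNPA1L2 this length exceeds the annotated span of the gene, so FPKM is no sure guide to the order of genes. The submitters' processing notes name cutadapt 1.9, FastQC and the build GRCh38 (hg38). Which aligner, counter, annotation and strand setting were used is not given in the sources used here. The 38792 rows that name no gene (2.46 to 2.70% of counts) entered neither the library sizes nor the tests.

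Rows naming a gene were kept where 3 or more of the 6 libraries reached 1 FPKM, and the counts of these 11260 rows were tested with edgeR 4.0.16 (R 4.3.3; glmQLFit and glmQLFTest, TMM scaling, two-sided), mimic minus control, with Benjamini-Hochberg adjustment over all rows and a threshold of 0.05. The fit was checked on simulated counts, with every row at the common coefficient of variation given below. It called 10% of 1.25-fold, 50% of 1.5-fold and 98% of 2-fold changes. These rates hold for the simulated rows, of which 11060 were unchanged, while 2506 rows passed in the data. They do not carry over to single genes, whose spread differs. SF3A3 passed at 1.12-fold (SE 0.04 on the log2 scale) and PRPF19 at 1.16-fold (SE 0.05). PRPF40B did not pass at 1.29-fold (SE 0.11). A gene that did not pass may still have changed by a small amount. The SE comes from the log2 fold change and its F statistic, and 95% intervals use the t distribution on the fit's 6.90 total degrees of freedom. The common biological coefficient of variation was 14.0%. No library pair agreed within sampling noise (the lowest chi-square over its degrees of freedom was 26.9). Alternatives were DESeq2 1.42.0, limma 3.58.1 on log2(FPKM + pseudocount), other scalings and filters, a replicate block and each library left out. Genes given with every library are those that passed and the highest in level of each family, and of each other list up to 4 with the smallest p among those called. Genes and lists were chosen with earlier results of these data known. 3′ UTRs are the longest of basic transcripts in GENCODE 29. Tables were handled with Python 3.11.15 and pandas 2.3.3, and figures with matplotlib 3.10.9. Some genes that the naming rule covers are not reported here, and counts include them.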

Additional observations from a re-analysis of the deposited data

How the results depend on the processing

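Of the 57 genes, 10 were higher and 6 lower. None of the 16 called genes changed sign under any of the alternatives run. Of genes that were not called and lay near 0, SNRPC was at −0.07 on library totals, SF3B5 at 0.03 without control replicate 2 and PRPF6 at 0.02 without mimic replicate 1. Scaled to library totals, 11 of the 57 were lower, as were 14 genes of the other splicing lists, and the median log2 fold change of the 57 was −0.056; it was −0.044 with limma on log2(FPKM + 1) and −0.052 on log2(FPKM + 0.1). Genes higher were 62.5% of those called with TMM, 47.6% on library totals, and 61.2% and 38.9% over all rows. Leaving out each library in turn gave 8 to 11 higher and 3 to 5 lower of the 57, and 1576 to 2222 calls over all rows, the fewest without control replicate 3, with 10 of the 16 genes called in every such fit. Without control replicate 2 or mimic replicate 1, 3 of the 57 were lower.

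Same-numbered libraries did not deviate together (correlations of −0.01, 0.06 and −0.05), so the numbers are not taken to pair them. With the replicate block, 9 of the 57 were higher and 4 lower, and 1922 rows passed; HNRNPUL1, SF3A3 and SNRPF were not called (adjusted p = 0.0563, 0.0886 and 0.0932 from edgeR).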
